A study of Homo sapiens with 24 samples.

Results

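This report describes 10 genes of the hypoxia response and of angiogenic signalling in LNCaP cells, an androgen-responsive human prostate cancer line. They were chosen by symbol from 23946 genes listed in the deposited tables, and they are VEGFA, ADM, ADM2, HIF1A, EGLN3, CA9, CA12, BNIP3, BNIP3L and ANKRD37. The study asked how gene expression responds to enzalutamide, an antagonist of the androgen receptor, and to DHT, its natural agonist, and whether the transcription factor GATA2 is needed for the response to enzalutamide. Before treatment all cells were kept for 3 days in medium whose serum had been stripped with charcoal, which removes steroids. In the ligand experiment cells received vehicle, 10 µM enzalutamide for 4 h or 24 h, or 10 nM DHT for 4 h or 24 h. No time is given for vehicle, so the same vehicle libraries served at both times. In the siRNA experiment cells were transfected with a non-targeting pool (siControl) or a pool against GATA2 (siGATA2) and, 72 h later, treated for 24 h with vehicle or 25 µM enzalutamide. All values are from poly(A)-selected RNA of a single cell line in culture, and the 10 µM and 25 µM doses of enzalutamide belong to different experiments.

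Cells sense oxygen through hypoxia-inducible factor (HIF), a pair of proteins made of an oxygen-labile alpha subunit, encoded by HIF1A or EPAS1, and a stable partner encoded by ARNT. When oxygen is present, prolyl hydroxylases of the EGLN family mark the alpha subunit for destruction through the VHL ubiquitin ligase, so HIF activity is set mainly at the level of protein. When oxygen is short, HIF binds promoters and enhancers and raises genes for new vessels, glycolysis, acid export and mitochondrial turnover, and in prostate tumours the secreted factor VEGFA is the best known of these.

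The depth was high for most of the 10 genes. The ligand libraries held between 38894876 and 59985287 estimated counts, with 2 replicates per condition, and edgeR tested 15555 genes. HIF1A had at least 8760 counts in every ligand library, BNIP3L 5710, BNIP3 4609 and VEGFA 3253, whereas ANKRD37 had 84 to 204 and ADM 38 to 348. CA9 had 11 counts in all ligand libraries together, at most 4 in any, and was not tested there. The siRNA experiment had 3 replicates per condition and RPKM values, tested for 20369 genes, and all 10 genes were among them. Throughout, a gene was called when its Benjamini-Hochberg adjusted p over all genes tested was below 0.05. Of the 6 prostate luminal markers, KLK2 went down to 0.313 RPKM in its lowest siRNA library, and the other 5 were at 17.6 RPKM or more in all of them. The endothelial markers PECAM1, CDH5 and TEK, the leukocyte markers PTPRC and CD3E and the fibroblast markers COL1A2 and DCN were below 1 RPKM in every siRNA library. The fibroblast marker COL1A1 was detected throughout, at 9.62 to 16.3 RPKM, and the endothelial marker VWF was at 0.362 to 1.25 RPKM. The summed level of the leukocyte list, nearly all of it CD68, was 3.54 to 3.84 RPKM in siControl vehicle and 10.5 to 12.2 RPKM in siGATA2 vehicle libraries, and that of the luminal list was 1189 to 1251 and 391 to 411 RPKM. The part of these shifts in the results below was not tested. GATA2 itself was at 82.3 RPKM ± 4.72 (SD, n = 3) in siControl and 51.4 RPKM ± 4.22 in siGATA2 cells with vehicle, so its RNA was lowered in part. With enzalutamide the levels were 129 RPKM ± 1.97 and 62.1 RPKM ± 2.37. One library stood somewhat apart. SiGATA2 vehicle replicate 3 differed from replicates 1 and 2 by a root mean square of 0.166 and 0.152 on the log2 scale over 11999 genes, against 0.117 between those replicates, and it was lower than both for several of the 10 genes.

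Promoter sequences are shown first because HIF recognises a short core, ACGTG or GCGTG, and most of these genes are known HIF targets. VEGFA had no window in the source used, and BNIP3L was left out without a search. RefSeq windows on GRCh38.p14 were used for the other 8 of the 10 genes. Each was searched over the 250 bases before the annotated start, on both strands, and overlapping matches were counted separately. A core was found in 7 of 9 windows, against 43.2% of all 35116 promoter windows of the same length. The starts are those of RefSeq, and for ADM, CA12 and ANKRD37 all 250 bases lie in a UTR that GENCODE annotates, as do 117 bases for CA9 and 90 for the second window of HIF1A. That second window and the window of EGLN3 held no core, and BNIP3 held the most, with 6 matches between 143 and 104 bases before its start. In the lines below capitals mark the core or its reverse complement, and sequences run 5′ to 3′ along the gene. BNIP3 is given in full (chr10:131981924-131982173, minus strand), and the others as the stretch around a core.

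BNIP3: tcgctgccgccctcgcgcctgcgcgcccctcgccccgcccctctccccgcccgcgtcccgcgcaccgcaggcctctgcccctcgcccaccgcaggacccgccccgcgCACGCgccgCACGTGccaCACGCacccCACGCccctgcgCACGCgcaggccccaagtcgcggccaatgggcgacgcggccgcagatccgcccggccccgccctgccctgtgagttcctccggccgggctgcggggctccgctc
ANKRD37 (chr4:185396669-185396694, plus strand): cgccgggctcCACGTGccagtgtttg
CA9 (chr9:35673900-35673924, plus strand): gtttccaatgCACGTacagcccgta
ADM (chr11:10304962-10304986, plus strand): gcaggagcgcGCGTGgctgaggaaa
ADM2 (chr22:50481308-50481332, plus strand): ccccgctgcaGCGTGgggaagtccg
CA12 (chr15:63382066-63382090, minus strand): ggatctcaccCACGCctgccagcag
HIF1A (chr14:61695299-61695323, plus strand): gctgagagcgGCGTGggctggggtg

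The core of CA9 lies 18 bases before the start, that of ADM 101 bases and that of ADM2 225 bases. The palindrome CACGTG, which holds a core on either strand, occurs in the windows of BNIP3 and ANKRD37. Neither TGATGNAA, the composite motif read by ATF4 with CHOP (3.14% of all windows), nor a GATA motif, spelled AGATAA or AGATAG and also searched as TGATAA or as TGATAG (22.3% of all windows), was found in any of the 8 genes. These matches describe letters within 250 bases and say nothing about binding, and more distant elements were not searched. The primers designed by the study to measure VEGFA by RT-PCR both lie in exon 6 of an annotated transcript on chromosome 6 (GRCh38), while the RNA-seq values are totals per gene.

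VEGFA forward (chr6:43780754-43780773): aaggggcaaaaacgaaagcg
VEGFA reverse (chr6:43780825-43780844): ggaggctccagggcattaga

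The forward primer matched 11 and the reverse primer 4 of the 32 annotated VEGFA transcripts, and neither matched a transcript of another gene.

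Per unit of length, the mitophagy receptors BNIP3 and BNIP3L were the most abundant of the 10 in siControl cells with vehicle, at 57.6 RPKM ± 0.560 and 56.7 RPKM ± 1.12 (SD, n = 3). Their libraries overlapped, so their order is not resolved. HIF1A followed at 33.9 RPKM ± 1.09, VEGFA at 20.7 RPKM ± 1.19 and ADM2 at 14.9 RPKM ± 0.530, with no overlap between these neighbours. The hydroxylase gene EGLN3 (10.6 RPKM ± 0.382) and the carbonic anhydrase gene CA12 (10.5 RPKM ± 0.0781) overlapped. ANKRD37, an ankyrin repeat gene, was at 4.76 RPKM ± 0.961. CA9, the tumour-associated carbonic anhydrase that exports acid, was at 0.813 RPKM ± 0.222, and ADM, which encodes the vasodilator peptide adrenomedullin, was last at 0.254 RPKM ± 0.0742. In the siRNA experiment ADM therefore rested on 15 to 38 reads per library.

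VEGFA was raised by both ligands at 4 h but only enzalutamide held it up at 24 h. It encodes the growth factor that drives endothelial cells to form vessels. Its level was 88.3 and 82.8 CPM in the vehicle libraries (CPM, counts scaled to one common library size, which the TMM factor of edgeR adjusts). It was 113 and 101 CPM after 4 h and 138 and 139 CPM after 24 h of 10 µM enzalutamide. Both enzalutamide times lay above both vehicle libraries, and the 24 h libraries lay above those at 4 h. Relative to vehicle VEGFA rose by 0.32 on the log2 scale at 4 h (SE 0.052, adjusted p = 0.00143) and by 0.69 at 24 h (SE 0.051, adjusted p = 2.64e-07, edgeR quasi-likelihood), or 1.25-fold and 1.62-fold. The step from 4 h to 24 h was itself called, at 0.37 (adjusted p = 1.56e-04, edgeR). The column names of the 2 times begin with different prefixes, whose meaning the headers do not give. That contrast of treated libraries alone therefore cannot tell time from whatever the prefix marks. Values against vehicle columns of the same prefix are given below and were not tested. With DHT the VEGFA libraries were at 115 and 120 CPM at 4 h and at 84.4 and 82.9 CPM at 24 h. The rise at 4 h was called (log2 fold change 0.46, adjusted p = 5.77e-05, edgeR), whereas at 24 h the groups overlapped (-0.03, adjusted p = 0.622). The fall from 4 h to 24 h of DHT was -0.49 (adjusted p = 4.57e-06, edgeR). The DHT libraries of the 2 times share no prefix either, so the same limit holds for that fall. At 24 h VEGFA was lower with DHT than with enzalutamide by a log2 difference of -0.73 (adjusted p = 3.92e-08, edgeR), and at 4 h the difference of 0.13 was not called (adjusted p = 0.10, and 0.00497 at a difference of 0.21 without enzalutamide 4 h replicate 1). As in any bulk sample, more transcript per cell and more cells with the transcript cannot be told apart.

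ADM RNA was low under the agonist at both times, and no change against vehicle was called under the antagonist. The vehicle libraries were at 5.53 and 5.33 CPM, those of enzalutamide at 5.32 and 5.17 CPM (4 h) and 6.86 and 6.21 CPM (24 h). The DHT libraries were at 2.30 and 1.97 CPM at 4 h and at 0.750 and 0.969 CPM at 24 h, below every other library. In counts, ADM had 335 and 210 in vehicle and 41 and 38 after 24 h of DHT. The fall at 4 h (log2 fold change -1.35) is a description only, since ADM was chosen for it. At 24 h, in other DHT libraries but against the same vehicle, the log2 fold change was -2.68 (SE 0.15, adjusted p = 1.40e-08, edgeR), or 6.43-fold lower. Against the enzalutamide libraries at 24 h it was -2.95 (adjusted p = 1.38e-09, edgeR). Enzalutamide against vehicle gave -0.05 at 4 h (adjusted p = 0.814) and 0.26 at 24 h (adjusted p = 0.0887, edgeR). At 4 h of DHT the libraries of VEGFA were thus all above vehicle and those of ADM all below it.

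ADM2 encodes intermedin, which acts through the same receptors as adrenomedullin. Its libraries were at 46.4 and 46.8 CPM in vehicle, 88.8 and 80.7 CPM at 4 h of enzalutamide and 93.8 and 97.7 CPM at 24 h. Every enzalutamide library lay above every vehicle library, with log2 fold changes of 0.86 and 1.04. Because the study's own lists of enzalutamide-raised genes, made from these libraries, include ADM2, these values carry no test. With DHT, which did not choose it, but against the same vehicle, ADM2 was at 44.9 and 45.3 CPM at 4 h (-0.05, adjusted p = 0.687) and 39.2 and 40.2 CPM at 24 h (-0.23, adjusted p = 0.00218, edgeR). The further decline of -0.19 between the times was called (adjusted p = 0.00862, edgeR), and it missed the threshold without DHT 4 h replicate 2 (adjusted p = 0.0507).

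**Figure D1:**
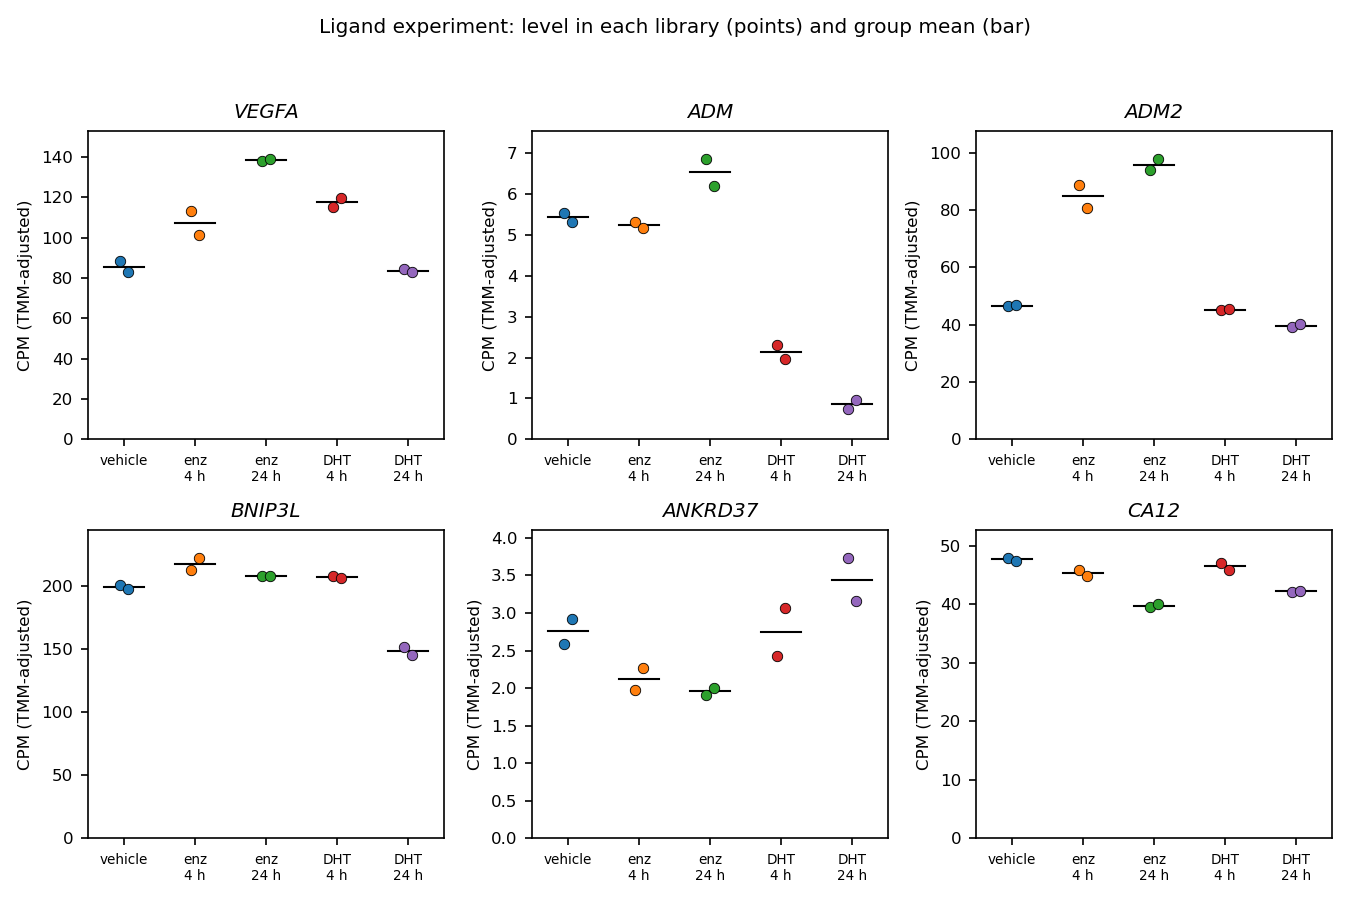
Level of 6 of the genes in the ligand experiment, in CPM with TMM-adjusted library totals (vertical axes from 0), for vehicle, 10 µM enzalutamide (enz) and 10 nM DHT, with a point for each of the 2 libraries and a bar at the mean. VEGFA sits at 138 and 139 CPM after 24 h of enzalutamide against 82.8 and 88.3 CPM in vehicle, and ADM falls below 1 CPM after 24 h of DHT.

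HIF1A RNA, the template of the oxygen-labile subunit, hardly moved with either ligand. It lay between 223 and 261 CPM in every ligand library. Enzalutamide gave log2 fold changes of 0.03 and -0.07 at 4 h and 24 h (adjusted p = 0.709 and 0.217, edgeR). DHT at 24 h gave a fall of -0.11 (libraries at 233 and 223 CPM against 248 and 246 CPM, adjusted p = 0.0257, edgeR), and this call was lost without DHT 24 h replicate 2 (adjusted p = 0.174) or without either vehicle replicate (adjusted p = 0.111 and 0.069). EGLN3, whose product hydroxylates HIF and which is itself a HIF target, was called lower in 3 of the 4 comparisons with vehicle. Its vehicle libraries were at 14.6 and 15.6 CPM and all others between 11.7 and 13.7 CPM, with no overlap. The log2 fold change was -0.36 at 4 h of DHT (adjusted p = 0.0049), -0.29 at 24 h of DHT (adjusted p = 0.00351) and -0.23 at 24 h of enzalutamide (adjusted p = 0.018, edgeR), while the -0.16 at 4 h of enzalutamide was not called (adjusted p = 0.153, edgeR). The fall at 4 h of DHT was not called without DHT 4 h replicate 1 (adjusted p = 0.0656) or vehicle replicate 2 (0.0537), nor that at 24 h of enzalutamide without enzalutamide 24 h replicate 2 (0.16) or vehicle replicate 2 (0.0898).

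The effector genes did not move as a block. CA12, a membrane-bound carbonic anhydrase, fell to 39.5 and 40.1 CPM with enzalutamide at 24 h from 47.9 and 47.4 CPM in vehicle (log2 fold change -0.26, adjusted p = 3.93e-04, edgeR). With DHT at 24 h it fell to 42.1 and 42.3 CPM (-0.18, adjusted p = 0.00354, edgeR). BNIP3 and BNIP3L, which tag mitochondria for autophagy, went opposite ways with DHT at 24 h. BNIP3 rose to 147 and 139 CPM from 119 and 117 CPM (0.27, adjusted p = 5.60e-05, edgeR), and BNIP3L fell to 151 and 146 CPM from 201 and 198 CPM (-0.42, adjusted p = 4.96e-07, edgeR). Neither pair of groups overlapped. With enzalutamide their changes were small, with BNIP3L at 0.13 at 4 h (adjusted p = 0.0321) and BNIP3 at 0.12 at 24 h (adjusted p = 0.0269, edgeR). Leaving out any of 7 libraries ended the call of BNIP3L and leaving out any of 6 that of BNIP3. ANKRD37 was lower with enzalutamide at 24 h, at 1.91 and 2.00 CPM against 2.59 and 2.92 CPM (-0.49, adjusted p = 0.0355, edgeR), and this call did not survive leaving out any of the vehicle or 24 h enzalutamide libraries (adjusted p between 0.0535 and 0.144). With DHT at 24 h ANKRD37 was at 3.73 and 3.16 CPM, which was above enzalutamide at the same time by 0.83 (adjusted p = 4.92e-04, edgeR).

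Counts over the genes leave out members in the contrasts that chose them. With enzalutamide 2 of 8 genes rose and 0 fell at 4 h, where 6.94% of all genes tested rose and 6.68% fell. At 24 h 2 of 8 rose and 3 fell, against 16.4% and 17% of all genes. With DHT at 4 h 1 of 8 rose and 1 fell (4.66% and 2.11% of all genes), and at 24 h 1 of 9 rose and 6 fell (26.9% and 23.2% of all genes). Between the times, 1 of 8 was higher and 1 lower at 24 h for enzalutamide (11.7% and 12.9% of all genes), and 1 of 8 was higher and 5 lower for DHT (26.3% and 23.5%). Between the ligands 0 of 7 differed at 4 h, where 8.49% of all genes were higher and 7.28% lower with DHT. At 24 h 2 of 8 were higher with DHT, BNIP3 and ANKRD37, and 3 were lower, VEGFA, ADM and BNIP3L (31.3% and 33.6% of all genes). At 4 h 3 of these 7 passed an unadjusted p below 0.05 (edgeR), DESeq2 also called 0, and edgeR with no filter on low counts called 1, VEGFA. Both enzalutamide libraries of a time share a column name prefix, as do both DHT libraries at 4 h, and each of the 3 prefixes has a vehicle column numbered 1. Compared only with the vehicle columns of the same prefix, VEGFA changed by 0.31 and 0.66 with enzalutamide and by 0.44 and -0.05 with DHT at 4 h and 24 h, and ADM by -1.40 and -2.63 with DHT, on the log2 scale. Among called values EGLN3 at 24 h of enzalutamide moved most, to -0.11 from -0.23, and BNIP3 at 4 h of enzalutamide, which was not called, gave 0.05 in place of 0.11.

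**Figure D2:**
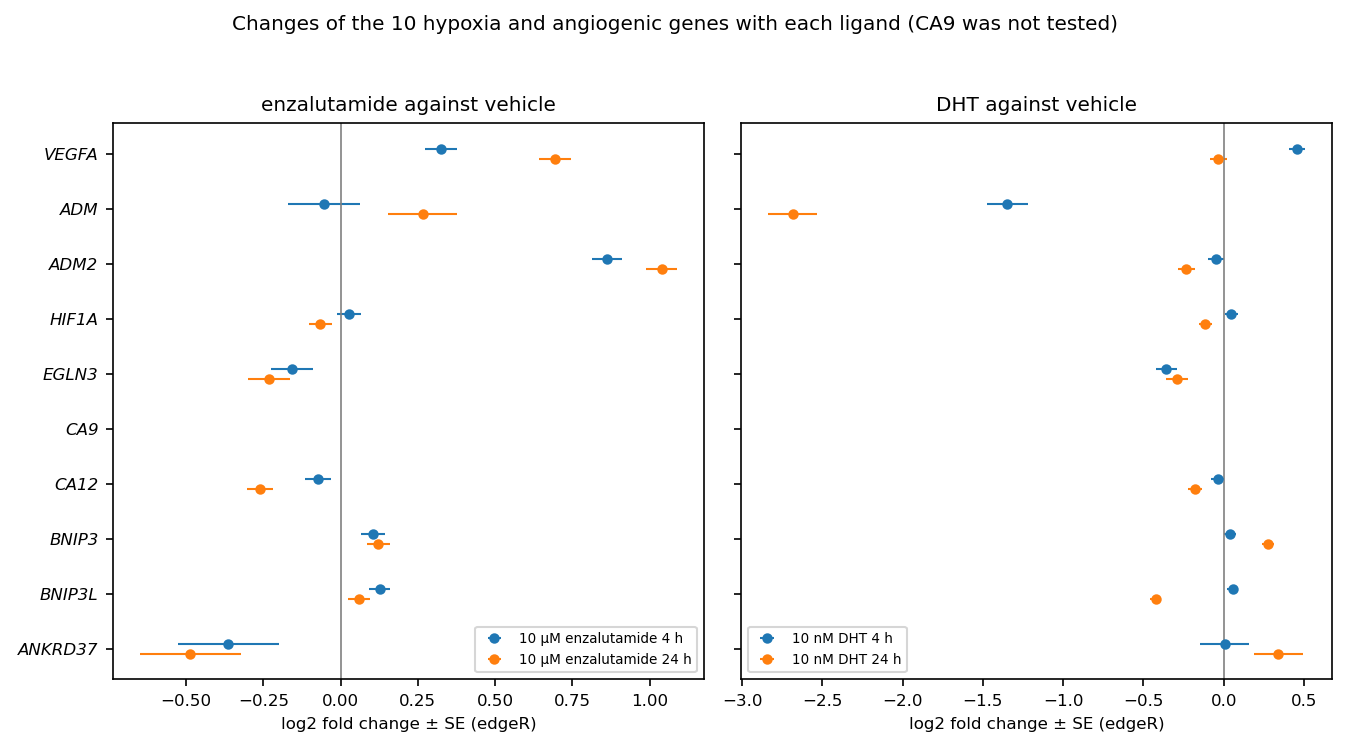
Log2 fold change against vehicle with its standard error (edgeR, 2 libraries per condition) for the 10 genes at 4 h and 24 h of each ligand. ADM falls by 1.35 and 2.68 with DHT, VEGFA rises by 0.32 and 0.69 with enzalutamide, and CA9, with 11 counts in all, has no value.

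Other genes of the pathway were counted over lists drawn up with earlier results of these data known. Of 8 tested genes of the list of HIF subunits and regulators, 7 fell and 0 rose after 24 h of DHT, where 23.2% of all genes fell and 26.9% rose, with a median log2 fold change of -0.25 against 0.001 over all genes. CITED2, which encodes a competitor of HIF for its coactivators, changed the most, at -0.91 (adjusted p = 7.58e-10, edgeR). ARNT2, a neural relative of ARNT, fell by 0.89 (adjusted p = 2.54e-08), EPAS1, which encodes HIF-2 alpha, by 0.78 (adjusted p = 8.96e-04) and EGLN1, the main HIF hydroxylase gene, by 0.28 (adjusted p = 2.89e-04, edgeR). With enzalutamide at 24 h 5 of the 8 rose and 0 fell (16.4% and 17% of all genes), among them EPAS1 (0.39, adjusted p = 0.0433) and EGLN1 (0.28, adjusted p = 4.34e-04, edgeR). Of 22 tested genes in a list of other HIF targets, 13 rose and 5 fell with DHT at 24 h (median 0.17), and 7 rose and 3 fell with enzalutamide (median 0.02). The share that fell with DHT was near that over all genes, 23.2%, and 26.9% of all genes rose. LDHA and PGK1, which encode glycolytic enzymes, fell with enzalutamide (-0.56 and -0.24, adjusted p = 2.86e-08 and 3.09e-05) and rose with DHT (0.46 and 0.15, adjusted p = 1.14e-07 and 7.81e-04, edgeR), the reverse of the order seen for VEGFA at that time. P4HA2, MXI1, KDM3A and DDIT4 of that list went the other way, up with enzalutamide and down with DHT. For P4HA2 the values were 0.44 and -0.475 (adjusted p = 3.10e-04 and 1.47e-04, edgeR). The largest changes of the list with DHT were those of LOX (2.15), HK2 (0.99) and INSIG2 (-0.95). DDIT4 and STC2, stress-responsive genes of the same list, rose with enzalutamide (0.87 and 0.84, adjusted p = 4.26e-10 and 2.65e-08, edgeR). In a list of 5 targets of ATF4 and CHOP, the transcription factors of the integrated stress response, ASNS and SESN2 rose at 24 h of enzalutamide (0.86 and 0.77, adjusted p = 1.44e-08 and 1.30e-07, edgeR). DDIT3, which encodes CHOP, TRIB3 and CHAC1 are on the study's own list of raised genes from these libraries. Their log2 fold changes of 1.37, 1.06 and 1.47 are therefore descriptions. The known partners of the secreted factors ranged from abundant to hardly detected. The VEGF co-receptor gene NRP1 was at 434 CPM or more in every ligand library, whereas the receptor genes FLT1 and KDR stayed below 0.1 CPM. Of 9 other VEGF ligands and receptors 3 passed the filter, with VEGFB up by 0.58 (adjusted p = 6.15e-04), NRP1 down by 0.25 (adjusted p = 2.10e-05) and FLT4 down by 0.87 (adjusted p = 0.00904) at 24 h of enzalutamide (edgeR). Of 4 further receptor genes, CALCRL and the RAMP genes, CALCRL (at most 0.831 CPM) and RAMP1 (at most 60.2 CPM) were tested. Neither was called against vehicle with either ligand (edgeR, adjusted p of 0.129 or more at 24 h).

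In siControl cells 25 µM enzalutamide raised the secreted factors VEGFA and ADM2 and lowered most of the effector genes. VEGFA stood at 20.6, 19.5 and 21.9 RPKM with vehicle and at 40.1, 45.0 and 51.7 RPKM with enzalutamide. ADM2 stood at 15.1, 14.3 and 15.2 RPKM and at 29.8, 32.2 and 31.6 RPKM. Neither pair of groups overlapped, and the log2 fold changes were 1.13 and 1.06 on the scale of log2(RPKM + 0.1). The study lists raised genes of this contrast above a fold threshold, which both genes pass here, so no test is given. ADM did not differ by test, at 0.340, 0.209 and 0.214 RPKM with vehicle and 0.214, 0.263 and 0.185 RPKM with enzalutamide (-0.13, adjusted p = 0.666, limma).

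CA9 showed the largest fall of the 10 genes. It had 96, 61 and 91 reads with vehicle and 12, 8 and 11 with enzalutamide, which is 0.878, 0.566 and 0.996 RPKM against 0.114, 0.0829 and 0.0948 RPKM. The groups did not overlap, and the log2 fold change was -2.18 (SE 0.24, adjusted p = 4.60e-05, limma). The added 0.1 RPKM shrinks it, and the ratio of the means was 8.36. BNIP3 fell from between 57.1 and 58.2 RPKM to between 40.7 and 44.1 RPKM (-0.42, adjusted p = 9.83e-04, limma). BNIP3L fell by 0.26 (adjusted p = 2.53e-04), EGLN3 by 0.41 (adjusted p = 6.80e-04) and ANKRD37 by 0.69 (adjusted p = 0.0048, limma), each without overlap between groups. CA12 alone of the tested genes rose, to between 11.5 and 12.2 RPKM from between 10.5 and 10.6 RPKM (0.16, adjusted p = 0.00992, limma). In the other experiment CA12 fell after 24 h at 10 µM. BNIP3, which fell here, rose there by 0.12 (adjusted p = 0.0269, edgeR), a call that leaving out a library could end. These differences between the experiments were not tested. HIF1A was not called (0.02, adjusted p = 0.633, limma). In all, 1 of the 8 genes not chosen from this contrast rose and 5 fell, where 17.7% of all genes rose and 24.4% fell. The other HIF targets had 4 of 24 up and 9 down, with LDHA at -1.23 and PGK1 at -0.75 (adjusted p = 4.29e-08 and 1.18e-05, limma). DDIT4 and STC2, which pass the fold threshold of the study's list for this contrast, are among those up, so that count is not independent. Of the 5 targets of ATF4 and CHOP only SESN2 is below that threshold, and it rose by 0.93 (adjusted p = 1.07e-07, limma).

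**Figure D3:**
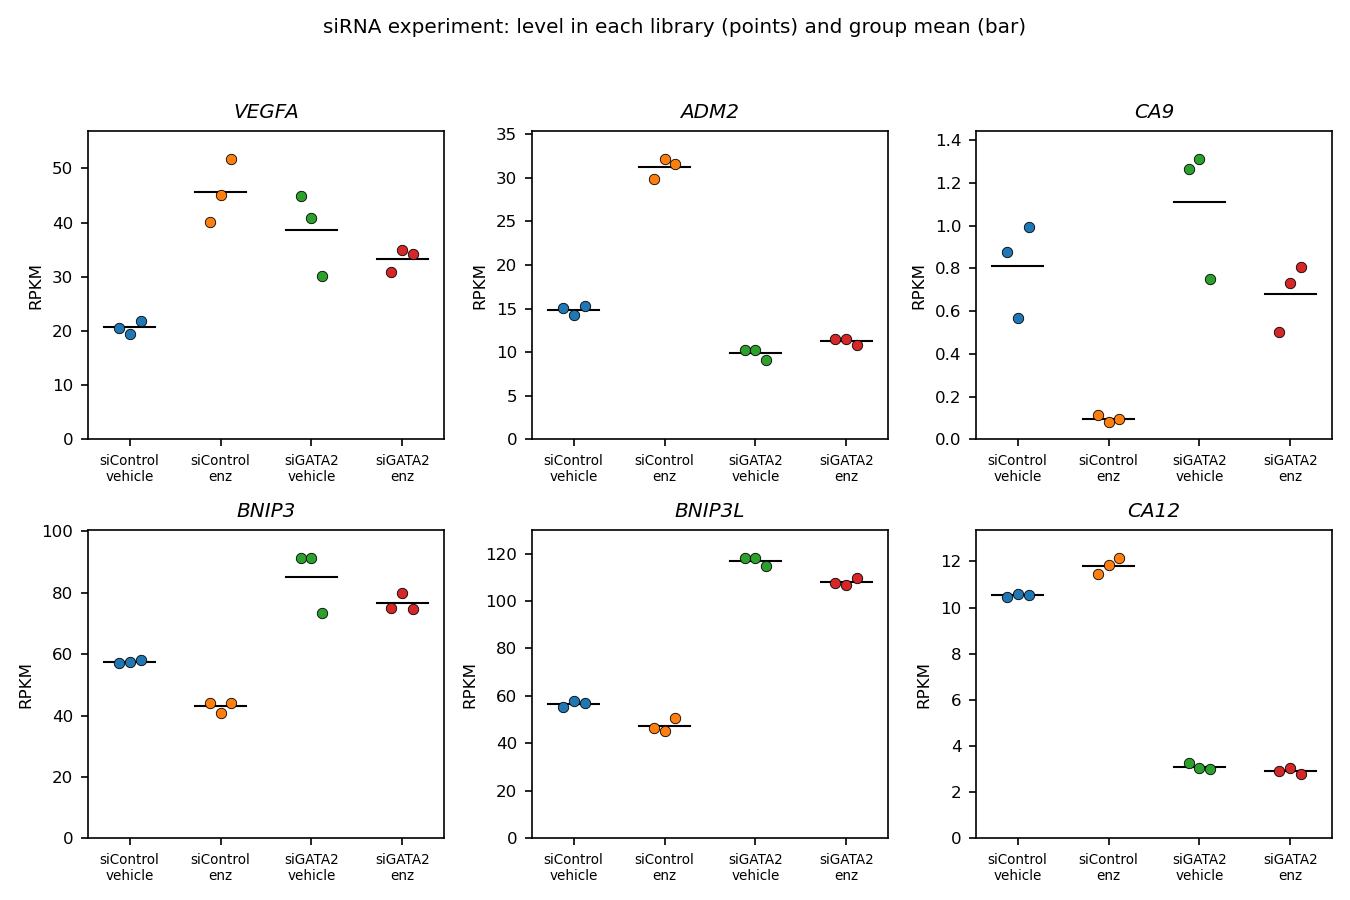
Level of 6 of the genes in the siRNA experiment, in RPKM (vertical axes from 0), for siControl and siGATA2 cells with vehicle or 25 µM enzalutamide (enz), with a point for each of the 3 libraries and a bar at the mean. CA9 drops from between 0.566 and 0.996 RPKM to about 0.1 RPKM with enzalutamide in siControl cells, CA12 is near 3 RPKM in all siGATA2 libraries, and BNIP3L is at 107 RPKM or more in all of them.

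With siGATA2 and vehicle, 5 of the 10 genes rose and 2 fell, where 24.2% of all genes rose and 31.4% fell. VEGFA was at 44.9, 40.8 and 30.2 RPKM, above all siControl vehicle libraries, with a log2 fold change of 0.88 (SE 0.14, adjusted p = 2.27e-04, limma). The lowest value belongs to replicate 3, and without it the change was 1.05. Both VEGFA and ADM2 pass the fold threshold of the study's list of raised genes against the siControl vehicle libraries. The tests of VEGFA here and of ADM2 below use those libraries, so they are not independent of that list. BNIP3L was at 118, 118 and 115 RPKM against 55.5 to 57.7 RPKM (1.05, adjusted p = 3.76e-09), and BNIP3 at 91.2, 91.3 and 73.4 RPKM against 57.1 to 58.2 RPKM (0.56, adjusted p = 7.52e-05, limma). HIF1A rose to between 42.6 and 44.7 RPKM from between 33.2 and 35.2 RPKM (0.36, adjusted p = 3.84e-06, limma). ANKRD37 rose by 0.46 (adjusted p = 0.0266, limma) with overlapping groups, and 3 of the 12 ways to leave out a library ended this call (without siGATA2 vehicle replicate 1 or 2, or siControl vehicle replicate 2, adjusted p between 0.0903 and 0.0935). CA12 fell the most, to 3.28, 3.03 and 2.99 RPKM from 10.5, 10.6 and 10.6 RPKM (-1.73, SE 0.042, adjusted p = 3.47e-10, limma), which is 3.40 times lower by the means. ADM2 fell to between 9.14 and 10.3 RPKM (-0.58, adjusted p = 2.96e-06, limma). CA9 (0.40, adjusted p = 0.191) and EGLN3 (0.05, adjusted p = 0.573, limma) were not called, and both passed without siGATA2 vehicle replicate 3 (0.64, adjusted p = 0.0367, and 0.15, adjusted p = 0.00607). ADM gave -0.35 (adjusted p = 0.185, limma), and -0.55 (adjusted p = 0.0331) without siGATA2 vehicle replicate 2.

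Under enzalutamide most of the effector genes were higher in siGATA2 than in siControl cells. Of the 8 genes not chosen from this contrast, 6 were higher and 1 lower with siGATA2, where 26.3% of all genes were higher and 28.1% lower. CA9 had 60, 79 and 92 reads with siGATA2 against 12, 8 and 11 with siControl, or 0.503, 0.732 and 0.808 RPKM (1.97, adjusted p = 4.32e-05, limma). BNIP3L (1.19), ANKRD37 (0.92), BNIP3 (0.83), HIF1A (0.33) and EGLN3 (0.30) were also higher, with adjusted p from 1.74e-09 to 0.00293 (limma). CA12 was lower by 1.98 (adjusted p = 1.62e-10, limma). VEGFA, described without a test, was at 30.9, 34.9 and 34.2 RPKM in these cells and ADM2 at 11.5, 11.6 and 10.8 RPKM, all below the siControl libraries with enzalutamide. The direction of the siGATA2 difference for VEGFA was therefore up with vehicle and down with enzalutamide, and that of ADM2 was down in both.

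Within siGATA2 cells, enzalutamide produced 0 calls among the 10 genes by limma (4 at an unadjusted p below 0.05), and 0.221% of all genes tested rose and 0.191% fell. The closest to the threshold was ADM2, whose 9.14 to 10.3 RPKM with vehicle lay just below its 10.8 to 11.6 RPKM with enzalutamide (0.19, adjusted p = 0.194, limma). BNIP3L was at 108, 107 and 110 RPKM against 118, 118 and 115 RPKM with vehicle (-0.11, adjusted p = 0.278, limma). VEGFA overlapped between the groups (-0.19, adjusted p = 0.672, limma). This comparison leaned on siGATA2 vehicle replicate 3. Without it 2 genes were called, BNIP3 (-0.25, adjusted p = 0.0384) and EGLN3 (-0.25, adjusted p = 0.027, limma). That 0 genes passed does not show that the response was absent, so the response in both cell states was compared directly by an interaction term.

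The interaction term was called for 2 of the 8 genes not chosen from it, 1 up and 1 down, against 15% and 10.8% of all genes tested. For CA9 it was 1.57 (SE 0.34, adjusted p = 0.00753, limma), since the fall with enzalutamide was -2.18 in siControl and -0.62 in siGATA2 cells. With 1 RPKM in place of 0.1 RPKM added before the logarithm it was 0.40 and not called. For CA12 the term was -0.25 (adjusted p = 0.0119, limma), from a rise of 0.16 and a change of -0.09. BNIP3 (0.27, adjusted p = 0.0821), BNIP3L (0.14, adjusted p = 0.0703), EGLN3 (0.25, adjusted p = 0.0802) and ANKRD37 (0.46, adjusted p = 0.161, limma) had positive terms that missed the threshold. Without siGATA2 vehicle replicate 3, 4 genes were called, with BNIP3 (0.17, adjusted p = 0.0403) and EGLN3 (0.16, adjusted p = 0.0353, limma) beside CA9 and CA12. For VEGFA and ADM2, which were chosen from this experiment, the terms of -1.33 and -0.88 are descriptions. Of the targets of ATF4 and CHOP, SESN2 had a term of -0.91 (adjusted p = 5.59e-06, limma), and the terms of the other 4, chosen like VEGFA, were negative and carry no test.

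**Figure D4:**
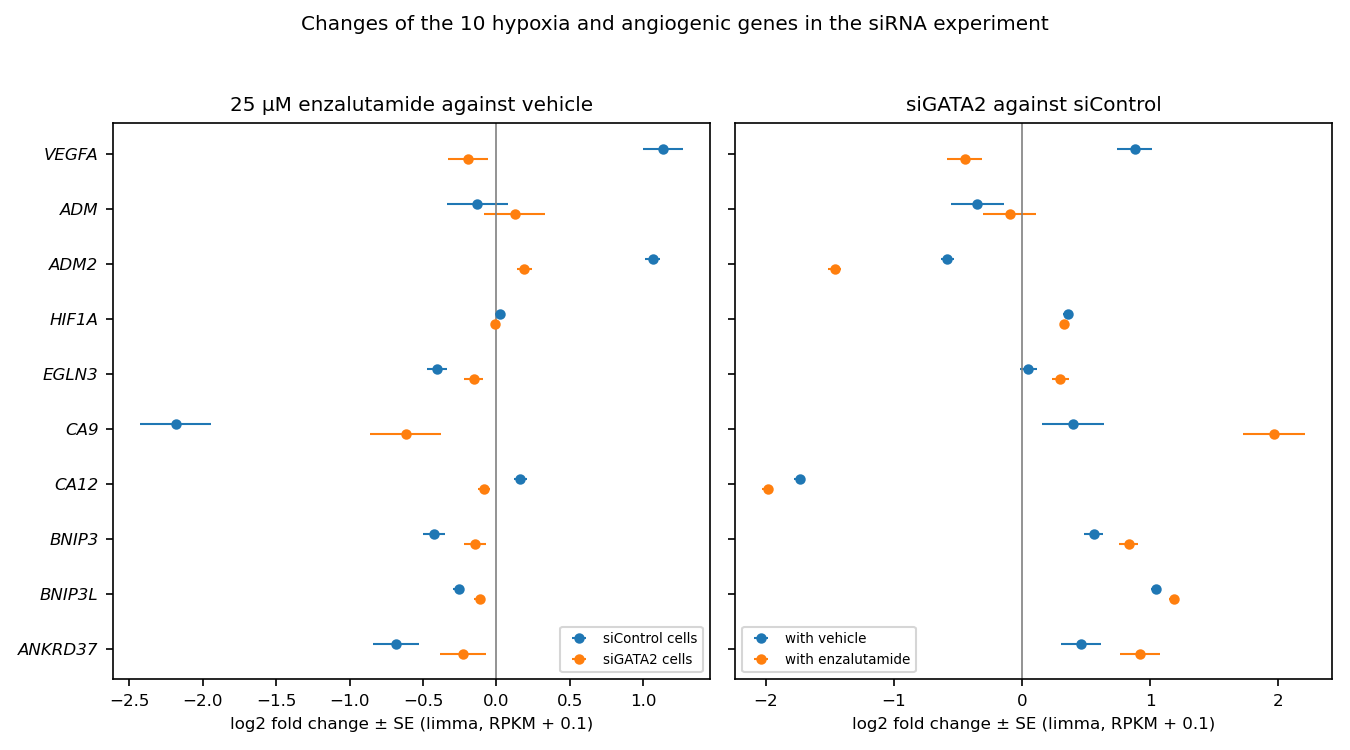
Log2 fold changes with standard errors (limma on log2(RPKM + 0.1), 3 libraries per condition) for the 10 genes, on the left for 25 µM enzalutamide in siControl and siGATA2 cells and on the right for siGATA2 against siControl with vehicle or enzalutamide. CA9 lies at -2.18 in siControl and -0.62 in siGATA2 cells, VEGFA at 1.13 and -0.19, and CA12 at -1.73 and -1.98 for siGATA2.

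The HIF machinery did not move as a block with siGATA2. Of 8 tested genes of that list 5 rose and 2 fell with vehicle, where 24.2% of all genes rose and 31.4% fell, with EGLN1 at 0.78 (adjusted p = 1.13e-07), EPAS1 at 0.49 (adjusted p = 4.19e-04), ARNT at 0.34 (adjusted p = 3.51e-07), ARNT2 at -0.52 (adjusted p = 1.30e-06) and CITED2, which encodes a competitor of HIF for its coactivators, at -0.76 (adjusted p = 3.69e-08, limma). Of the 24 other HIF targets 7 rose and 4 fell, with a median of 0.03, and the share that rose was near that over all genes. NDRG1 changed the most of them, by 1.65 with vehicle and 2.00 under enzalutamide (adjusted p = 4.53e-07 and 1.13e-07, limma). LDHA and PGK1 were 2.29-fold and 1.79-fold higher with siGATA2 under enzalutamide (adjusted p = 1.34e-08 and 1.69e-06, limma), in the same direction as CA9 and ANKRD37. The receptor genes CALCRL, RAMP2 and RAMP3 fell with siGATA2 and vehicle (-0.70, -0.47 and -0.42, adjusted p = 6.26e-05, 0.0215 and 4.28e-04, limma). Their highest value in any library was 0.266 RPKM, close to the 0.1 RPKM added. RAMP1, whose lowest library was at 39.9 RPKM, was not called (0.09, adjusted p = 0.213, limma).

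Some of these genes share sequence with others in the GENCODE annotation. Exons of CA9 overlap those of ARHGEF39 on the other strand over 507 bases, those of ANKRD37 overlap UFSP2 over 909 bases, and those of BNIP3L overlap PNMA2 over 330 bases. The library kit keeps strand, but whether the counting used it is not given in the sources used here. ARHGEF39 fell with enzalutamide in siControl cells (-0.94, adjusted p = 8.67e-07) and with siGATA2 and vehicle (-0.79, adjusted p = 8.63e-07), and its value for siGATA2 under enzalutamide was -0.08 (adjusted p = 0.287, limma), where CA9 rose by 1.97. UFSP2 rose with siGATA2, as ANKRD37 did, by 0.25 with vehicle and 0.41 under enzalutamide (adjusted p = 6.65e-05 and 1.29e-06), its interaction term was 0.17 (adjusted p = 0.0223), and it was not called with enzalutamide in siControl cells (-0.08, adjusted p = 0.0651, limma). PNMA2 fell with DHT at 24 h (-1.50, adjusted p = 3.66e-04, edgeR), as BNIP3L did, and with siGATA2 and vehicle (-1.51, adjusted p = 2.57e-08, limma), where BNIP3L rose. The part of these overlaps in the values was not tested. BNIP3 has 39 annotated pseudogenes by name, so reads it shares with them are uncertain.

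Across both experiments the genes whose pattern was most like that of VEGFA were CAMK2D, ALDH3A2, RRAGD, GHITM and BEX4. Likeness was taken as the smaller of 2 Pearson correlations, across the 10 ligand and the 12 siRNA libraries, among 11366 genes, and it lay between 0.86 and 0.88. For ADM they were KIF16B (0.77), CYP39A1 (0.70), IFT52 (0.66), PCDHB8 (0.63) and ARHGEF17 (0.63). Libraries of a condition and of an experiment share their treatment and run, and ADM had few reads, so these values only describe the profiles.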

How the data were processed

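RNA-seq libraries of LNCaP cells were grouped by their sample labels. For the ligand experiment the authors deposited estimated counts per gene (TopHat2 2.0 and Partek, hg19, per the submitters' processing notes), without normalization. The vehicle table has 4 columns, of which 3 carry replicate number 1. Pairs of these differed by a mean chi-square per gene of 1.53 to 1.56, against 3.56 to 3.74 with replicate 2, so they were summed and counted as 1 sample, although the labels list 4 vehicle samples as biological replicates. Counts were rounded and tested with edgeR 4.0.16 in R 4.3.3 (quasi-likelihood, TMM factors, default filter) in one model of 5 conditions. A gene missing from one table was set to 0 there. For the siRNA experiment the authors deposited RPKM values. Genes with a value above 0 in 3 or more libraries entered limma 3.58.1 on log2(RPKM + 0.1), as a single model of the 4 conditions with a trend of variance on level. RPKM sums per library were 301300 to 317933. Reads behind low RPKM values were recovered for ADM, CA9 and ANKRD37 as whole numbers within 0.02. The labels call replicates biological, and p-values measure the spread between these libraries. P-values were Benjamini-Hochberg adjusted over all genes tested.

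The genes and lists were chosen with earlier results of these data known. VEGFA and ADM2 were not tested in contrasts where the study lists them or where they pass the fold threshold of its list. The same holds for the list genes DDIT3, TRIB3, CHAC1, ASNS, DDIT4 and STC2. ADM was not tested in contrasts with the DHT 4 h libraries. The text names these 10 genes, list genes with a call and a defining role or one of the 3 largest changes of their list, and the 5 genes most like VEGFA and ADM (mean of at least 1 on the log2 CPM scale and 1 RPKM). Not every list gene that meets this rule is named, and some outside it are, such as PGK1 and P4HA2. Each fit was tested on simulated data. The number of deposited sample columns left unused was 0. Alternatives were DESeq2 1.42.0, other scaling, filters, pseudocounts and vehicle columns, each library left out, and the replicate number as a block. The comparison within column name prefixes was chosen after seeing the data. Figures were drawn with matplotlib 3.10.9.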

Additional observations from a re-analysis of the deposited data

Results flagged for a closer look

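Several of these genes responded differently at the 2 times or in the 2 cell states, by a test of the difference itself (adjusted p from edgeR between times and from limma for the interaction). Between 24 h and 4 h of enzalutamide VEGFA differed by 0.37 (adjusted p = 1.56e-04) and CA12 by -0.19 (adjusted p = 0.00611), on the log2 scale. Without enzalutamide 24 h replicate 1 the adjusted p of CA12 was 0.0538. Between 24 h and 4 h of DHT the differences were -0.49 for VEGFA, -0.19 for ADM2, -0.16 for HIF1A, -0.14 for CA12, 0.23 for BNIP3 and -0.48 for BNIP3L (adjusted p from 1.92e-07 to 0.0145). That of CA12 was not called without DHT 24 h replicate 1 (adjusted p = 0.0537) or DHT 4 h replicate 1 (0.106), nor with DESeq2. The effect of enzalutamide in siGATA2 less that in siControl cells was 1.57 for CA9 (adjusted p = 0.00753) and -0.25 for CA12 (adjusted p = 0.0119). The differences between times are contrasts of the treated libraries, so vehicle values do not enter them. For both ligands the 2 times share no column name prefix, so these contrasts alone cannot tell time from prefix. Against vehicle columns of the same prefix, VEGFA changed by 0.31 and 0.66 with enzalutamide at 4 h and 24 h. With DHT the values were 0.44 and -0.05, and the step between these values was not tested.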

How the results depend on the processing

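With 2 libraries per ligand condition, small changes were the least stable. With the replicate number as a block, which the labels do not tie to a shared culture or day (correlations of same-numbered deviations -0.176 to 0.143 and -0.342 to 0.28), 1 gene in place of 2 was called for enzalutamide at 4 h, as when only the compared conditions were fitted, and the other counts did not move. DESeq2 called 2 genes in place of 5 for enzalutamide at 24 h. Without a low-count filter 1 gene differed between the ligands at 4 h. For the interaction 1 gene was called with 1 RPKM added and 4 with a mean of at least 1 RPKM required. That last filter leaves out CA9 (mean 0.675 RPKM) and ADM (0.214 RPKM), so CA9 is not among those 4. With libraries left out in turn the counts ran from 1 to 3 (enzalutamide 4 h), 2 to 5 (24 h), 1 to 2 (DHT 4 h), 1 to 3 (between enzalutamide times), 0 to 1 (between ligands at 4 h), 0 to 2 (enzalutamide in siGATA2 cells) and 2 to 4 (interaction), and the causes were not tested. In 17 of 2190 refits a log2 value changed sign, always one that was not called, and 41 refits of a named gene lost a call while 22 gained one. ANKRD37 at 4 h of DHT was -0.011 with library size alone and -0.001 with the block, and HIF1A with enzalutamide in siGATA2 cells 0.009 with centred libraries. With a library left out the ranges were -0.168 to 0.166 for ANKRD37 at 4 h of DHT, -0.03 to 0.078 for HIF1A at 4 h of enzalutamide, -0.028 to 0.081 for HIF1A between ligands at 4 h, -0.076 to 0.017 for VEGFA at 24 h of DHT, -0.012 to 0.039 for BNIP3 between enzalutamide times and -0.112 to 0.03 for EGLN3 between ligands at 24 h. In the siRNA experiment they were -0.223 to 0.037, -0.006 to 0.329 and -0.216 to 0.023 for ADM (enzalutamide in siControl and siGATA2 cells, siGATA2 under enzalutamide), 0 to 0.048 and -0.023 to 0.013 for HIF1A (enzalutamide in siControl and siGATA2 cells) and 0 to 0.145 for EGLN3 (siGATA2 with vehicle). ADM in the siRNA experiment and CA9 in the ligand experiment are limited by their read numbers.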
